A study of Homo sapiens with 18 samples.

Results

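GR occupancy near 10 genes of transforming growth factor beta (TGF-beta) signaling was followed through 6 lists of glucocorticoid receptor (GR) binding regions. GR is a hormone-activated transcription factor, and a GR binding region (GBR) is a peak of GR occupancy called from ChIP-seq. The genes were SKI, SKIL, SMAD3, SMAD6, SMAD7, TGFB1, TGFB2, TGFBR1, TGFBR2 and TGFBR3. They were chosen by a rule that used the peak calls themselves: a GBR belonged to a gene when its summit lay within 100 kb of the start of the canonical transcript. Of the 9533 GBR in cells depleted of Hic-5, 20 belonged to these genes, and of the 2582 GBR in cells containing Hic-5, 8 did. Since the calls entered the choice, counts over the 10 genes are a description, beside the same share over all GBR or over all 20033 protein-coding genes.

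The cells were U2OS-GRα, a human osteosarcoma line made to express GRα stably, in which GR therefore comes from an introduced gene. All groups received dex (100 nM), a synthetic glucocorticoid that activates GR, for 1 h beginning 48 h after siRNA transfection, and no group without dex was analysed here. The 6 siRNA combinations were siNS/siNS (non-specific siRNA), siHic5/siNS (depletion of the coregulator Hic-5), siCHD9/siNS and siBRM/siNS (depletion of the chromatin remodeler CHD9 or BRM alone), and siCHD9/siHic5 and siBRM/siHic5 (double depletion). Each list was made from 2 pooled replicates, so each combination has 1 call per GBR, no replicate spread and no test. The question the design addresses is at which GBR Hic-5 limits GR occupancy and where that occupancy needs CHD9 or BRM. A siHic5/siNS GBR was named blocked when no siNS/siNS peak overlapped it and shared otherwise.

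The lists differed in size and in the weakest peak they held. They had 2582 (siNS/siNS), 9533 (siHic5/siNS), 2451 (siCHD9/siHic5), 3383 (siBRM/siHic5), 1415 (siCHD9/siNS) and 1278 (siBRM/siNS) peaks. The lowest −log10 q-value was 14.2 in the siBRM/siHic5 list and between 7.26 and 8.91 in the other 5 lists, so a weak GBR could be absent from the siBRM/siHic5 list at a value that the other lists accepted. Strength is therefore given as the rank by −log10 p-value within a list, peak heights were not compared between lists, and ranks in lists of such different lengths do not measure a change between combinations.

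TGF-beta ligands bind a type II receptor (TGFBR2), which phosphorylates a type I receptor (TGFBR1), while the type III receptor TGFBR3 (betaglycan) presents ligand. The activated receptor phosphorylates SMAD2 and SMAD3, which enter the nucleus with SMAD4. SMAD6 and SMAD7 inhibit the pathway at the receptors, and SKI and SKIL (SnoN) are corepressors that bind SMADs on DNA. Hic-5 is itself the product of TGFB1I1, a gene named for its induction by TGF-beta.

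The DNA of 3 GBR with different calls is printed first. All stretches are from GRCh38, 5′ to 3′, in lower case with motif matches in capitals. The first is the strongest blocked GBR, in an intron of SKI (chr1:2255380-2255679, plus strand), with matches to the ETS consensus in capitals, which here all lie on the minus strand. The ETS consensus searched was a C, then A or C, then GGAA, then A or G, then C or T, on both strands. The second is the promoter GBR of SKIL, called in every combination (chr3:170357182-170357341, plus strand), with matches to the short SMAD element CAGACA, or TGTCTG on the other strand, in capitals. The third is the promoter GBR of TGFB1, called after Hic-5 depletion alone (chr19:41353923-41354042, minus strand), with its single ETS match in capitals.
SKI intron: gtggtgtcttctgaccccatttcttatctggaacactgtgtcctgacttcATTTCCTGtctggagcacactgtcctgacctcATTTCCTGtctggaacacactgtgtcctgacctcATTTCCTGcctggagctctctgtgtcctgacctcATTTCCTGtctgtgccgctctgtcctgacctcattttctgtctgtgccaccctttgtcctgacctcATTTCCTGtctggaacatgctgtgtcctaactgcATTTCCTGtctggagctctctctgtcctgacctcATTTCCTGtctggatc
SKIL promoter: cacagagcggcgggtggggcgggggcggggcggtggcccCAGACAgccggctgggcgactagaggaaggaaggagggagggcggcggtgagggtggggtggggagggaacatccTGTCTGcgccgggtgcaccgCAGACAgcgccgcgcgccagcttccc
TGFB1 promoter: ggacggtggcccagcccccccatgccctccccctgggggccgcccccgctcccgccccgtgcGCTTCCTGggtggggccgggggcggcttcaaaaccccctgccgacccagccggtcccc

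The SKI stretch was a tandem repeat in which the same unit, with an ETS match in most copies, came back at nearly even steps. The SKIL and TGFB1 stretches had no such unit and were rich in G and C, the 1-kb windows around their summits having 80.5% and 70.8% G and C against 50.4% at SKI. Matches to the GR response element (GRE), the 15-base sequence that GR dimers bind, were found in the 1-kb windows of 9 of the 20 GBR. The best of each is printed here because its position against the summit can be compared, with the 3 bases on either side of the 3-base spacer in capitals.
SKI +27.2 kb: ggaACActgTGTcct
SMAD7 +20.4 kb: gggACAgacTGTccc
SMAD3 +55.7 kb: gggGCAgttTGTact
SMAD6 +21.8 kb: ggaACAgctTGTgca
TGFBR1 −58.2 kb: ggtAGAattTGTtct
TGFBR2 −9.2 kb: ggcACAgagTGTtca
TGFBR2 +23.4 kb: aaaACAgacTGTgct
TGFBR2 +60.1 kb: ggaTCAtagTGTgct
TGFBR3 +84.2 kb: ggtACAgaaTGTaca

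GBR are named by gene and by the distance of the siHic5/siNS summit from the start, negative upstream. The SKI and SMAD7 +20.4 kb sites matched all 10 defined letters of the GRE, and the other 7 had 1 mismatch. At 7 of the 9 GBR a GRE lay within 100 bp of the summit, with the closest match at 1 bp (TGFBR3), 3 bp (TGFBR2 +60.1 kb), 6 bp (SMAD6 +21.8 kb), 14 bp (SMAD7), 15 bp (TGFBR2 +23.4 kb), 27 bp (TGFBR2 −9.2 kb) and 33 bp (SKI). The SKI site printed above, the only one there with no mismatch, was centred at −99 bp from the summit. In SMAD3 and TGFBR1 the GRE lay 276 and 188 bp from the summit. All 3 GBR of TGFBR2 that were called after Hic-5 depletion alone had a GRE, whereas the TGFBR2 GBR called in 5 lists (−94.9 kb) had none. Over all siHic5/siNS GBR the order was the other way, with a GRE in 48.9% of blocked and 66.9% of shared GBR. No match says only that these letters are not in the window.

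After Hic-5 depletion 9 of the 10 genes had a GBR within 100 kb, all but TGFB2, where 43.6% of all protein-coding genes had one. In cells containing Hic-5 7 genes had one (17.0% of all genes), namely SKIL, SMAD3, SMAD6, SMAD7, TGFBR1, TGFBR2 and TGFBR3. SKI and TGFB1 had a GBR only in lists from cells depleted of Hic-5. With CHD9 depleted as well, 3 genes had a GBR (SKIL, SMAD3 and TGFBR2; 16.4% of all genes), and with BRM depleted as well, 7 did (SKI, SKIL, SMAD3, SMAD6, SMAD7, TGFB1 and TGFBR2; 22.2%). In cells containing Hic-5, depletion of CHD9 gave 3 genes with a GBR (10.5% of all genes) and depletion of BRM gave 2, SKIL and SMAD3 (9.92%). The 10 genes were picked with GBR in view, so a share above that of all genes is not read as a result about them.

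**Figure D1:**
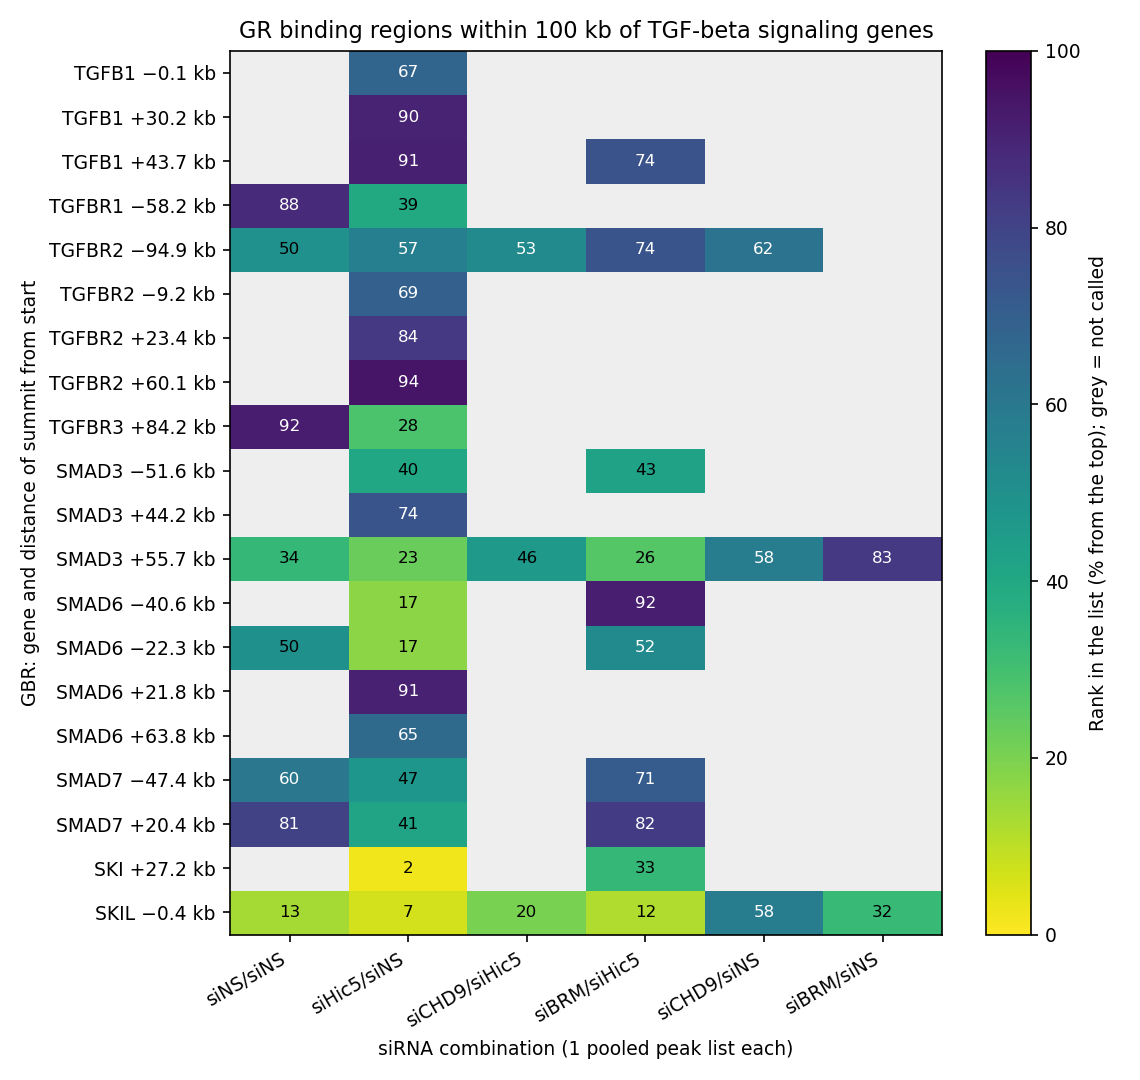
Calls of the 20 siHic5/siNS GBR (rows, by gene and distance) in the 6 siRNA combinations (columns); colour and number give the rank within the list as a percentage from the top, and grey means not called. SKIL −0.4 kb and SMAD3 +55.7 kb are filled in all 6 columns, and SKI +27.2 kb is filled only under siHic5/siNS and siBRM/siHic5.

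Of the 20 GBR of these genes, 12 were blocked, against 74.0% of all siHic5/siNS GBR (60.0% of the 20). With every list cut at a −log10 q-value of at least 20, 7 of 9 had no siNS/siNS peak left (77.8%), against 76.6% of all. This is not the blocked share as defined above. It counts SMAD6 −22.3 kb, SMAD7 +20.4 kb, TGFBR1 and TGFBR3, which are shared GBR whose siNS/siNS peaks lay under the cut. With every list cut at 14.2, 7 of 12 had no siNS/siNS peak left (58.3%), against 76.1% of all. None of the 8 siNS/siNS GBR of the genes was lost on Hic-5 depletion, where 3.18% of all siNS/siNS GBR were. Of the 20, 8 were called in no list but siHic5/siNS (58.7% of all), and 2 were called in all 6 lists (9.25% of all). Most blocked GBR were weak, with a median rank of 6838 of 9533 against 3217.5 for the 8 shared GBR, but SKI at rank 193 and SMAD6 −40.6 kb at rank 1653 stood well above that median. Over all GBR the median ranks were 5889 for blocked and 1416.5 for shared. Within each class the median GBR of these genes ranked lower than the median of all.

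Of the 20, 17 had no siCHD9/siHic5 peak (75.4% of all) and 10 had no siBRM/siHic5 peak (65.4% of all), and all 10 of the latter lacked both (61.8% of all). A further count gave 7 GBR that were called after double depletion of BRM and Hic-5 but not of CHD9 and Hic-5, against 13.7% of all, and none showed the reverse, against 3.61% of all. The 7 were SKI +27.2 kb, SMAD3 −51.6 kb, SMAD6 −40.6 kb and −22.3 kb, both SMAD7 GBR and TGFB1 +43.7 kb. Among the blocked GBR all 12 lacked a siCHD9/siHic5 peak (90.6% of all blocked) and 8 lacked a siBRM/siHic5 peak (83.3%). Among the 8 shared GBR 5 lacked a siCHD9/siHic5 peak (32.3% of all shared) and 2, TGFBR1 and TGFBR3, lacked a siBRM/siHic5 peak (14.3%). The siBRM/siHic5 list had the stricter lower limit, and with that limit set for all lists 3 of 12 remaining GBR had no siBRM/siHic5 peak (25.0%, against 50.5% of all), since 7 of the 10 lay under that limit in the siHic5/siNS list, and 75.0% had no siCHD9/siHic5 peak (78.2% of all). At that limit 6 of the 12 had a siBRM/siHic5 peak and no siCHD9/siHic5 peak, against 28.6% of all. With the 1000 strongest peaks of each list 0 of 2 did, against 14.0% of all. Of the 8 siNS/siNS GBR of the genes, 5 had no siCHD9/siNS peak (51.4% of all siNS/siNS GBR) and 6 had no siBRM/siNS peak (52.2%).

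**Figure D2:**
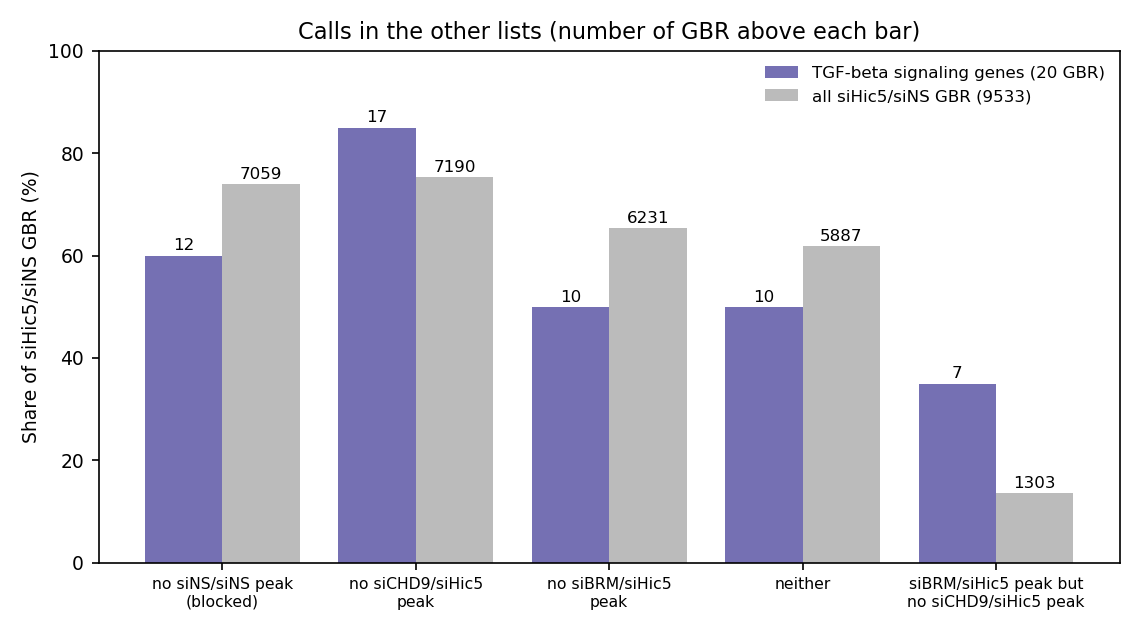
Share of siHic5/siNS GBR (%) absent from or present in other lists, for the 20 GBR of the TGF-beta signaling genes and for all 9533; numbers above the bars count GBR. The 20 lie below all GBR for blocked (60.0% against 74.0%) and above for a siBRM/siHic5 peak with no siCHD9/siHic5 peak (35.0% against 13.7%). The first order turned only with every list cut at a −log10 q-value of 20, which also removed siNS/siNS peaks of shared GBR. There is no replicate spread to set beside these shares.

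**Figure D3:**
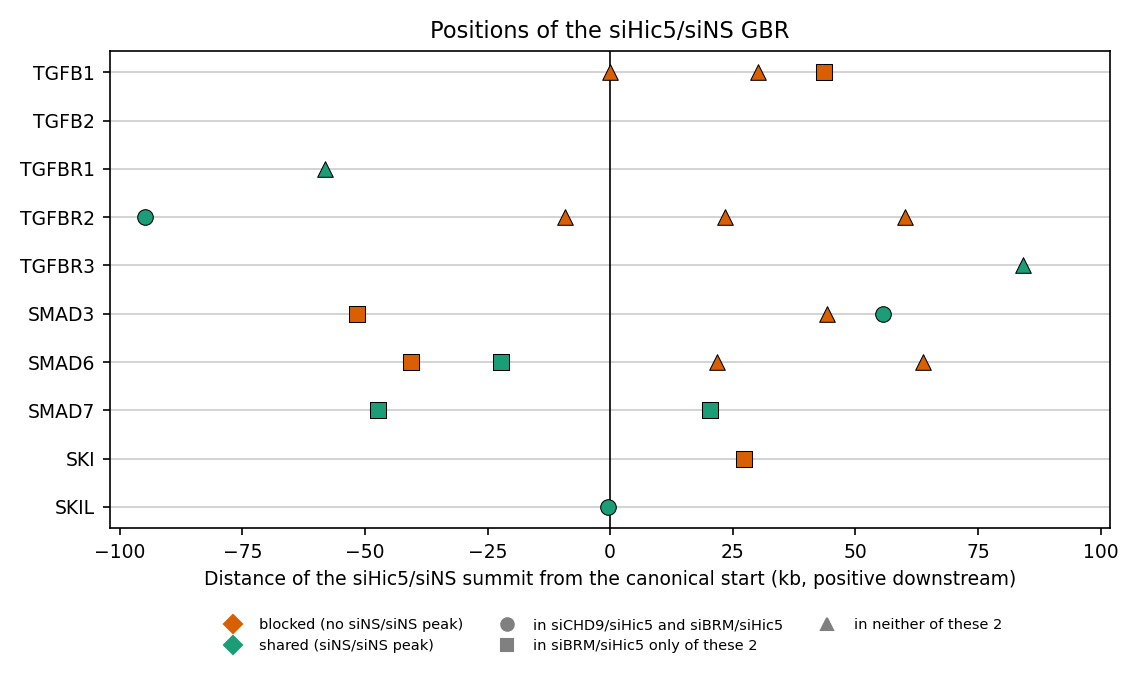
Distance of each siHic5/siNS summit from the canonical start (kb, positive downstream) for the 10 genes; colour separates blocked from shared GBR and the symbol gives the calls after double depletion. Only SKIL and TGFB1 have a summit next to the start, and all circles (called in both doubly depleted lists) are shared GBR.

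Among the ligands, TGFB1, the prototype of the TGF-beta family, had 3 GBR, all of them blocked and all weak. The promoter GBR (chr19:41353515-41354223, −0.056 kb) ranked 6405 of 9533, with a −log10 p-value of 17.5, and was called in no other list. It lay in an intron of the neighbouring gene TMEM91, and its ETS match was centred 1 bp from the summit. The GBR at +30.2 kb (rank 8627) was also called after Hic-5 depletion alone, overlapped a UTR of CCDC97 and an intron of TGFB1, and held a pair of AP-1 matches (TGACTCA or TGAGTCA), the nearer at 30 bp. The GBR at +43.7 kb (rank 8678) lay 0.093 kb from the start of CCDC97, so that its link to TGFB1 rests on distance alone, and it ranked 2515 of 3383 in the siBRM/siHic5 list. TGFB2 had no GBR in any list within 100 kb, the nearest siHic5/siNS summit being 153 kb and the nearest siNS/siNS summit 523 kb from its start.

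The receptor genes differed from each other. TGFBR1 had 1 GBR (chr9:99046660-99047245, −58.2 kb), which lay in an intron of COL15A1 and ranked 2275 of 2582 in the siNS/siNS list and 3742 of 9533 after Hic-5 depletion. TGFBR3 also had 1 (chr1:91801690-91802145, +84.2 kb), in its own intron, which ranked 2381 of 2582 and 2693 of 9533 in the same lists. Both were shared GBR, and neither was called after any depletion of CHD9 or BRM.

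TGFBR2 had 4 GBR. The one at −94.9 kb (chr3:30511448-30511969) was called in all lists but siBRM/siNS, with ranks of 1280 of 2582 (siNS/siNS), 5432 of 9533 (siHic5/siNS, or 9318 by signal value), 1290 of 2451 (siCHD9/siHic5), 2501 of 3383 (siBRM/siHic5) and 877 of 1415 (siCHD9/siNS). It was a shared GBR of middling or low rank. The other 3, at −9.2 kb, +23.4 kb and +60.1 kb, the last 2 of these in introns, were blocked, ranked 6601, 7962 and 9006, and were called nowhere else. The GBR at −94.9 kb was also the one closest to the 100-kb limit from inside, and just outside it lay summits at 109 kb from SMAD3, 110 kb from TGFBR2 and 128 kb from TGFB1 in the siHic5/siNS list.

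SMAD3, which carries the signal from the receptors to DNA, had 3 GBR with 3 different sets of calls. The intron GBR at +55.7 kb (chr15:67120963-67122075) was called in every list and ranked 2175 of 9533 (siHic5/siNS, or 3663 by signal value), 893 of 3383 (siBRM/siHic5), 865 of 2582 (siNS/siNS), 1138 of 2451 (siCHD9/siHic5), 817 of 1415 (siCHD9/siNS) and 1067 of 1278 (siBRM/siNS). No depletion removed it from the calls. The GBR at −51.6 kb (chr15:67013702-67014155) was blocked, ranked 3805, and stood at 1438 of 3383 in the siBRM/siHic5 list. The intron GBR at +44.2 kb (rank 7075) was called after Hic-5 depletion alone. Each of the 3 had an ETS match, centred 1, 56 and 63 bp from the summit at +55.7, −51.6 and +44.2 kb.

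The inhibitory SMAD genes lie on different chromosomes, and their GBR differed in how many were blocked. SMAD6, which inhibits mainly BMP receptors, had 4 GBR, of which 3 were blocked. Its upstream pair at −40.6 kb (chr15:66661439-66661924) and −22.3 kb (chr15:66679700-66680212) had almost equal strength after Hic-5 depletion, with ranks of 1653 and 1654 and −log10 p-values of 49.2 and 49.2. Of this pair, the GBR at −22.3 kb was called in cells containing Hic-5 (rank 1281 of 2582) and that at −40.6 kb was not. With BRM and Hic-5 depleted they ranked 1774 and 3097 of 3383 (−22.3 and −40.6 kb), and neither was called with CHD9 and Hic-5 depleted. The intron GBR of SMAD6 at +21.8 kb (rank 8675) and +63.8 kb (rank 6233) were called after Hic-5 depletion alone.

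SMAD7, which inhibits TGF-beta and BMP receptors, had a pair of GBR and neither was blocked. The intron GBR at +20.4 kb (chr18:48930384-48930801) ranked 2085 of 2582 (siNS/siNS), 3950 of 9533 (siHic5/siNS) and 2777 of 3383 (siBRM/siHic5). The GBR at −47.4 kb (chr18:48998095-48998602) ranked 1560, 4528 and 2399 in the same lists. Both had the same calls: present with and without Hic-5 and after double depletion of BRM and Hic-5, and absent from the other 3 lists. The summits of each agreed within 18 bp between the 3 lists.

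By rank in the siHic5/siNS list, the strongest GBR were those of the corepressors. The SKIL GBR (chr3:170356608-170358703, −0.396 kb) was called in all 6 lists, with −log10 p-values of 50.1 (siNS/siNS, rank 344 of 2582), 85.7 (siHic5/siNS, 663 of 9533), 40.6 (siCHD9/siHic5, 492 of 2451), 92.3 (siBRM/siHic5, 397 of 3383), 16.9 (siCHD9/siNS, 820 of 1415) and 25.2 (siBRM/siNS, 413 of 1278). It too was called under every depletion. In the siHic5/siNS list it was 2096 bp wide, against a median of 506 bp over all, and its window had 3 CAGACA matches, all within 100 bp of the summit, whereas the GRE, ETS and AP-1 patterns were not found in it.

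The SKI GBR (chr1:2255004-2256421, +27.2 kb) lay in an intron. It had a −log10 p-value of 147 and rank 193 of 9533 after Hic-5 depletion, and no list of cells containing Hic-5 had a peak there, the siNS/siNS summit nearest to the start of SKI being 1019 kb from it. Of all 7059 blocked GBR it had the highest rank. With BRM and Hic-5 depleted it was called with a −log10 p-value of 44.9 and rank 1131 of 3383, and with CHD9 and Hic-5 depleted it was not called. Its summits in the siHic5/siNS and siBRM/siHic5 lists lay 212 bp apart, more than at any other of these GBR, and over all GBR 1.77% of such pairs were more than 200 bp apart. The GBR was 1418 bp wide, and 106 of the 9533 were wider.

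The motif content of the SKI GBR set it apart from the others. In the 1-kb window around the summit there were 15 ETS matches, the highest number among all 9533 windows, where the median was 0 and the other 19 GBR of these genes had at most 3. The window also had 7 GRE matches (12 windows had more) and 14 CAGACA matches (3 windows had more). Across the whole GBR there were 22 ETS, 19 CAGACA and 10 GRE matches and no AP-1 match. All 22 ETS matches lay on the minus strand, with a median gap of 34 bp (range 25 to 103 bp). CAGACA and the ETS consensus shared bases at 17 of the 22, so these are not separate counts.

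The repeat unit was seen in the sequence itself. When the SKI GBR was compared with itself after a shift of 34 bp, 50.2% of bases were equal, and after 68 bp 42.1%. In the 1-kb window the identity at 34 bp was 49.2%, the highest over shifts of 10 to 100 bp, and over all windows the median of this highest identity was 30.0%. Windows with a higher value numbered 111, and the highest among the other GBR of these genes was 38.6% (SKIL). These sequence values did not enter the choice of the genes.

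**Figure D4:**
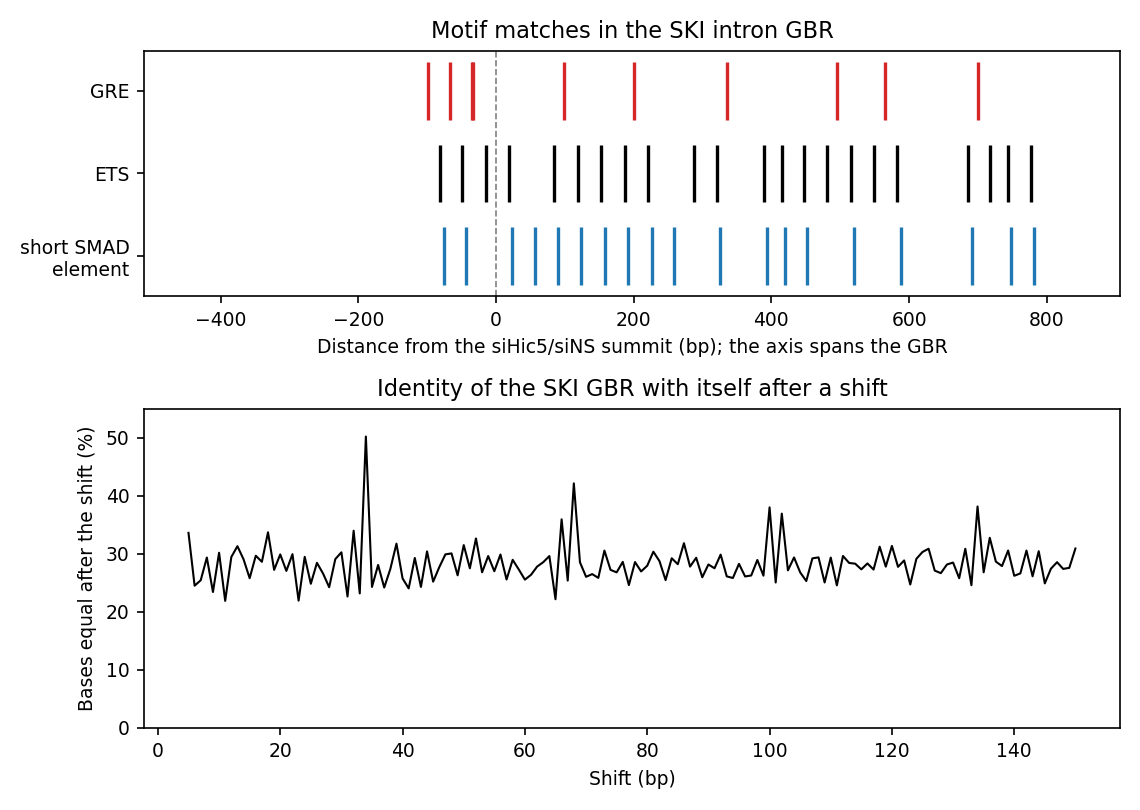
Above, motif matches along the SKI intron GBR by distance from the siHic5/siNS summit (bp); below, the share of bases (%) equal when the GBR is shifted against itself. The 22 ETS matches lie from −81 to 777 bp, at a median step of 34 bp (range 25 to 103 bp). The identity peaks at a shift of 34 bp (50.2%) and again at 68 bp (42.1%).

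Over the 20 GBR, motif matches in the 1-kb windows were found at shares both above and below those of all siHic5/siNS GBR. A GRE with at most 1 mismatch was found in 9 (45%, against 53.6% of all), and one with none in 2 (11.2% of all). AP-1 was found in 5 (25%, against 37.1%) and ETS in 9 (45%, against 37.9%). The short SMAD element CAGACA was found in 14 (70%, against 58.0%), and the palindromic SMAD binding element, GTCT followed by AGAC, in none, against 0.797% of all. In windows of 200 bp ETS was found in 8 (40%, against 13.9%), CAGACA in 4 (20%, against 19.9%), GRE in 7 (35%, against 46.2%) and AP-1 in 3 (15%, against 19.5%). A match is a sequence description and not a sign of a bound factor.

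Beyond the 10 genes, 47 other genes of the TGF-beta and BMP pathways were counted, of which 30 had a GBR within 100 kb after Hic-5 depletion (63.8%, against 43.6% of all protein-coding genes) and 15 in cells containing Hic-5 (31.9% against 17.0%). With double depletion 13 (siCHD9/siHic5, 27.7% against 16.4%) and 20 (siBRM/siHic5, 42.6% against 22.2%) had one. With CHD9 or BRM depleted in cells containing Hic-5, 11 (23.4% against 10.5%) and 7 (14.9% against 9.92%) did. The 47 genes were listed with earlier results known, so nothing is read from these higher shares. They had 78 different siHic5/siNS GBR, of which 55 were blocked (70.5%), 58 had no siCHD9/siHic5 peak (74.4%) and 53 had no siBRM/siHic5 peak (67.9%). These shares lay near the 74.0%, 75.4% and 65.4% of all siHic5/siNS GBR.

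**Figure D5:**
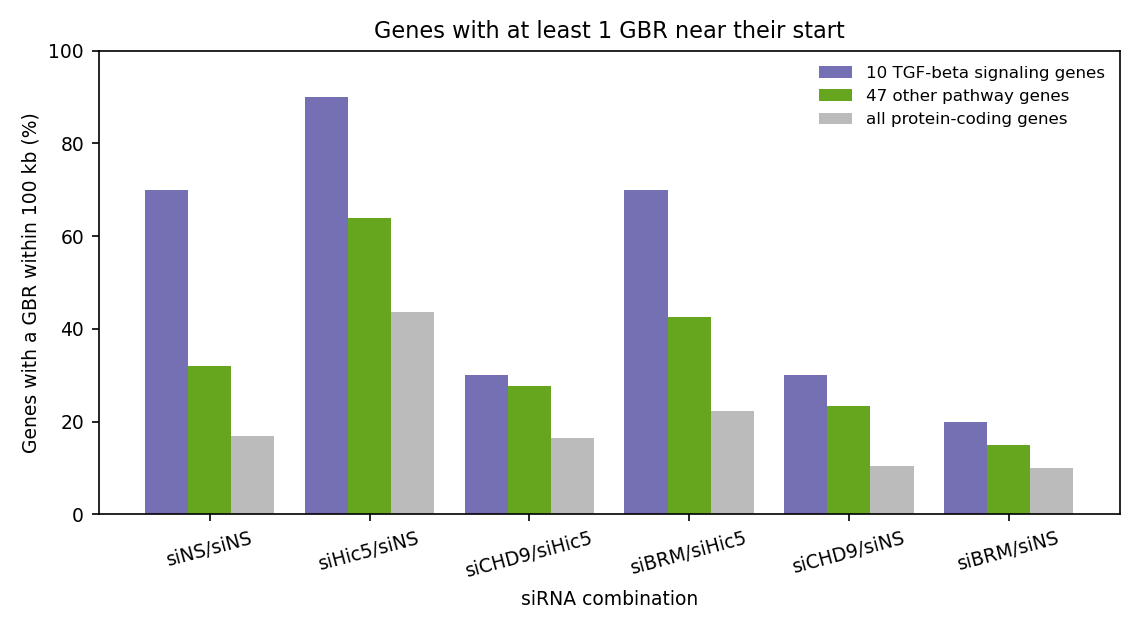
Share of genes (%) with at least 1 GBR within 100 kb of the start, by siRNA combination, for the 10 TGF-beta signaling genes, the 47 other pathway genes and all protein-coding genes. In the siHic5/siNS list the shares are 90.0%, 63.8% and 43.6%, and the 10 genes were picked with GBR in view.

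By role, 5 of the 9 genes for ligands and latent binding proteins had a siHic5/siNS GBR, as did 4 of 9 receptors, 3 of 5 SMADs, 6 of 10 inhibitors and 12 of 14 targets, where 43.6% of all protein-coding genes did. LTBP3, which tethers latent TGF-beta, had 5 GBR, the strongest of rank 173, at +86.2 kb and called in all 6 lists. The latent binding protein genes LTBP2 (rank 576, all 6 lists) and LTBP1 (rank 2507, siHic5/siNS only) followed. Among the receptors, the strongest GBR of BMPR1A (−91.5 kb) ranked 881 and was called in 3 lists. Those of the neighbouring genes ACVR1B (+85.45 kb) and ACVRL1 (−87.0 kb) ranked 1786 and 3720. The best SMAD gene GBR belonged to SMAD9 (rank 2345, +36.6 kb), SMAD5 (4930, −95.5 kb) and SMAD2 (7679, −72.5 kb). The link of all these GBR to the named genes rests on distance alone.

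Among the inhibitors, TGIF1, a corepressor gene as are SKI and SKIL, had its strongest GBR 0.041 kb from its start (rank 506), and it was called in 4 lists. The ubiquitin ligase gene SMURF2 ranked 1585 and had one too in cells containing Hic-5, whereas all 5 GBR of NOG, which encodes a secreted BMP antagonist, were blocked and were called in neither doubly depleted list (best rank 2711). Among the targets, FN1, which encodes fibronectin, had a pair of GBR, neither of them blocked, the stronger of rank 294 at −92.6 kb. All 3 GBR of SNAI1, a transcriptional repressor gene, were blocked (best rank 813). TGFB1I1, the gene of Hic-5 itself, had no GBR within 100 kb in any list.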

How the data were processed

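ChIP with GR antibodies was followed by sequencing of 12 libraries from U2OS-GRα cells (2 replicates, done on different days, for each of 6 siRNA combinations) and of 6 input libraries. Per the labels and the study's methods, the authors mapped reads with BWA to GRCh38, removed duplicate reads, called peaks with MACS2 on pooled replicates and kept them by IDR. Versions and the IDR threshold are not given in the sources used here. The deposited lists give a signal value (described as enrichment), −log10 p-values and −log10 q-values, and the summit offset. Read depth is not in the lists.

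The 10 genes, the 47 pathway genes and the motifs were chosen with earlier results of these data known. Starts were those of GENCODE release 44 canonical transcripts, and GBR were matched by at least 1 bp of overlap. Peaks were ranked within a list by −log10 p-value. Motif consensus sequences were counted in windows of 1 kb and 200 bp around siHic5/siNS summits (Python 3.11.15, pandas 2.3.3, pysam 0.24.0), after the scripts were tested on simulated data. Named pathway genes were the 3 with the highest ranked siHic5/siNS GBR in each role. One gene that this rule names is not reported here. Since lists are pooled, no test was made. Coordinates are counted from 1. The alternatives were the distance, the start, the overlap rule, thresholds on q-value or rank, the ranking and the motif window.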

Additional observations from a re-analysis of the deposited data

How the results depend on the processing

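No paired analysis was possible because each list pools both replicates and gives 1 call per combination, and for the same reason no replicate could be left out. In all, 11 settings were tried. The shares of siHic5/siNS GBR that were blocked or lacked a peak after double depletion moved within their Wilson intervals with any annotated start (26 GBR), 50% reciprocal overlap or summits within 200 bp (20 GBR each). In the order siNS/siNS, siHic5/siNS, siCHD9/siHic5, siBRM/siHic5, siCHD9/siNS and siBRM/siNS, the GBR numbers of 8, 20, 3, 10, 3 and 2 became 4, 13, 1, 7, 1 and 1 within 50 kb, 8, 26, 4, 12, 4 and 2 with any annotated start and 12, 33, 8, 16, 6 and 4 within 200 kb. With a common lowest −log10 q-value (14.2) they became 5, 12, 3, 10, 0 and 1, and the shares with no siBRM/siHic5 peak and with neither peak went from 50% to 25.0%. Over all siHic5/siNS GBR these shares went from 65.4% to 50.5% and from 61.8% to 49.6%. With a −log10 q-value of at least 20 in every list the numbers were 2, 9, 1, 6, 0 and 1. Then 77.8% of the 9 had no siNS/siNS peak left, against 76.6% of all, where the blocked shares were 60.0% against 74.0%. These pairs are not one measure, since the cut also removed siNS/siNS peaks of shared GBR. With the 1000 strongest peaks of each list the numbers were 2, 2, 1, 2, 3 and 1. The share with no siCHD9/siHic5 peak was then 50%, or 1 of 2 GBR, against 29.6% of all. The share with no siNS/siNS peak was also 1 of 2, against 28.8% of all. Pathway genes with a GBR became 19 (siHic5/siNS), 13 (siBRM/siHic5) and 4 (siBRM/siNS) within 50 kb, and 21 (siCHD9/siHic5), 17 (siCHD9/siNS) and 11 (siBRM/siNS) within 200 kb. By signal value SKI ranked 96 in place of 193, SMAD3 +55.7 kb 3663 in place of 2175 and TGFBR2 −94.9 kb 9318 in place of 5432. CAGACA was found in 20.0% of the 20 GBR in 200-bp windows in place of 70.0%, and a GRE with no mismatch in 10.0% in place of 45.0%. The cause of these moves was not tested, beyond the fewer or more peaks that each setting admits. The lists hold no read depth, and its part in the calls was not tested.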

Other observations

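Windows with a tandem repeat as regular as that of SKI were set beside the rest of the siHic5/siNS list. The 111 other GBR whose 1-kb window was as similar to itself after a shift as the SKI window or more so were blocked in 74.8% of cases, against 74.0% of the 9421 GBR with a lower value. They had no siCHD9/siHic5 peak in 80.2% against 75.4%, and no siBRM/siHic5 peak in 57.7% against 65.5%. An ETS match was found in 25.2% of them against 38.0%, and a GRE match in 28.8% against 53.9%. Of the 111, 2 had 10 or more ETS matches, and none of the 9421 did. How reads were placed in these repeats was not tested.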
